A study of Mus musculus with 9 samples.

Results

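The imprinted Dlk1-Dio3 locus of the mouse was followed in pancreatic islets kept for 3 days at 11.8, 20 or 35 mM glucose. It was represented by 6 gene symbols, Dlk1, Meg3, Rian, Mirg, Rtl1 and Dio3, of which 3 had a row among the 22048 genes of the count table. Dlk1 had 787 counts over all libraries, Dio3 had 1 count and Rtl1 had 0. Meg3, Rian and Mirg, the long non-coding RNAs of the locus, were not analysed here. The locus was chosen by the measured level of Dlk1, which had been found higher at 35 than at 11.8 mM in these libraries, so the levels of Dlk1 are given as a description and no test is attached to them. The other symbols were named by their position beside Dlk1.

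In the mouse, Dlk1 and Rtl1 are read from the paternal chromosome and Meg3, Rian and Mirg from the maternal one, under a control region between Dlk1 and Meg3 that is methylated on the paternal copy. Dlk1 encodes a membrane protein with EGF-like repeats, related to the ligands of Notch receptors but without the domain with which canonical ligands bind them, and its outer part can be shed. In rodent islets it is known as a product of beta cells that responds to growth hormone and prolactin. Rtl1 derives from a retrotransposon and is best known from the placenta, and Dio3 encodes the deiodinase that inactivates thyroid hormone.

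The islets came from 9 ICR mice, an outbred strain, with no further genotype named, and every group was cultured in RPMI medium with serum. The series calls 35 mM extreme hyperglycemia, 20 mM hyperglycemia and 11.8 mM the basal level, and each concentration had 3 libraries. In the labels, the treatment text names 25 mM as the highest concentration, but titles, characteristics and design name 35 mM, which is used here. No label ties a library to a mouse, so the spread between libraries may be technical. CEL-Seq2, which reads the 3' ends of transcripts, gave 3228648 to 4559561 gene counts per library. Markers of beta cells summed to between 449100 and 652600 CPM (counts scaled to a common library size, as defined under the processing) in the 9 libraries, and markers of alpha, delta and PP cells were present in all of them.

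On mouse chromosome 12 of GRCm38, Dlk1 (ENSMUSG00000040856) occupies chr12:109452823-109463336 on the plus strand. Meg3 starts 88.2 kb downstream of the start of Dlk1, and Rian and Mirg start 151.1 and 276.9 kb downstream, all on the plus strand. Rtl1 lies between Meg3 and Rian on the minus strand, at chr12:109589193-109600330, and Dio3 lies farthest off, at chr12:110279068-110281097, 826.2 kb from Dlk1. No exon of another gene in the GENCODE M21 annotation overlaps those of Dlk1 or Dio3, whereas the exons of Rtl1 overlap 7 microRNA genes, 6 of them on the other strand.

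Since Dlk1 carried nearly all counts of the 3 members with a row, the 250 bases before its start are shown, read from the RefSeq promoter table of GRCm38.p6 (chr12:109452573-109452822, plus strand, 5′ to 3′), with each CG in capitals, the pair of bases at which mammalian DNA is methylated.

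Dlk1: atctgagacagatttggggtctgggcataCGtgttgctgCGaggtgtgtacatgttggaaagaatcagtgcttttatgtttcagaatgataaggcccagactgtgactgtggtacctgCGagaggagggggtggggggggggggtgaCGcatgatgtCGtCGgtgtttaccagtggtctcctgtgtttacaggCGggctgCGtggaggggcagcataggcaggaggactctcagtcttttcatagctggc

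These bases hold 8 CG. Over the full table entry, which runs to 50 bases past the start, Dlk1 has 9 CG, against a median of 7 over the 32851 promoters of the table, and 54.2% of promoters have fewer. The entry of Dio3 is denser, with 25 CG and a GC content of 69.0%, against 55.7% in that of Dlk1. Searched on both strands, the entry of Dlk1 holds no CACGTG, a form of the E-box that factors of the basic helix-loop-helix family recognise. This motif occurs in 7.15% of the promoters, and the entry of Txnip, known to be induced by glucose in beta cells, holds none either. Nor does the entry of Dlk1 hold TTCNNNGAA, the motif of STAT5, the transcription factor that growth hormone and prolactin activate, which occurs in 8.30%. The entry of Dio3 has a later start than the gene position given above, with its upstream bases ending at chr12:110279229. The TATA box TATAAA occurs in 13.6% of promoters and in that of Dio3, but not in that of Dlk1. In the entry of Dio3 the first base of this match lies 31 bases before that later start. These are matches of letters in short windows and carry no measurement of binding or methylation.

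Dlk1 was the member with a level to follow, and it was higher at each higher concentration. At 11.8 mM it had 9.86, 7.18 and 10.5 CPM, from 37, 31 and 36 counts. At 20 mM it had 16.6, 11.4 and 18.9 CPM, from 54, 45 and 67 counts. At 35 mM it had 49.1, 53.1 and 42.9 CPM, from 183, 183 and 151 counts. The 3 libraries at 35 mM stood apart from all others, whereas those at 20 mM lay just above those at 11.8 mM, with replicate 2 of the 20 mM group closest to them.

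Dlk1 averaged 48.4 ± 5.16 CPM at 35 mM and 9.18 ± 1.76 CPM at 11.8 mM (SD, n = 3 libraries each), a log2 fold change of 2.41 with a standard error of 0.21 in the fit over all genes, or 5.30-fold. The lowest library at 35 mM was 4.09 times the highest at 11.8 mM. Of the 9739 genes tested, 3 had a larger log2 fold change in either direction in this comparison, the one for which Dlk1 was chosen. In bulk islets, more RNA per cell and more cells that make it cannot be told apart.

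At 20 mM the mean was 15.6 ± 3.86 CPM, against 9.18 ± 1.76 CPM at 11.8 mM (SD, n = 3 libraries each), a log2 fold change of 0.77 with a standard error of 0.23. Here the groups nearly touched. The lowest library at 20 mM had 11.4 CPM, 1.08 times the highest at 11.8 mM with 10.5 CPM. Their 45 and 36 counts have exact 95% Poisson intervals of 32.8 to 60.2 and 25.2 to 49.8, which overlap and cover counting error only. The 3 libraries of each group did not overlap, but the gap between the closest of them was within counting error.

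Between 35 and 20 mM the log2 fold change was 1.64 with a standard error of 0.19, from means of 48.4 ± 5.16 CPM at 35 mM and 15.6 ± 3.86 CPM at 20 mM (SD, n = 3 libraries each). The lowest library at 35 mM was 2.27 times the highest at 20 mM. The comparisons share their libraries, so they are not independent of each other.

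**Figure D1:**
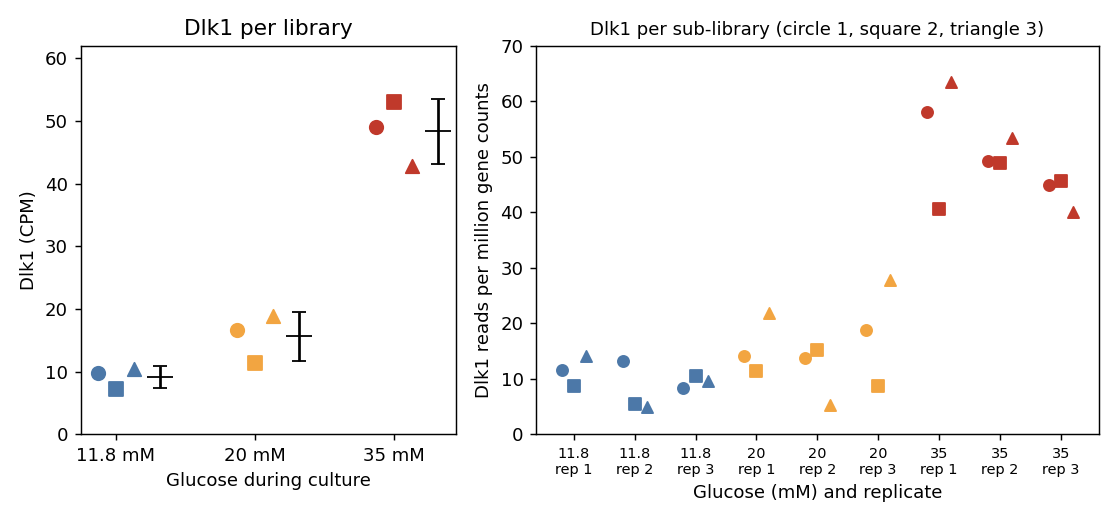
Dlk1 by glucose concentration in mM, as CPM in each of the 9 libraries with the group mean and SD beside the points (left) and as reads per 1e6 gene counts in each of the 27 sub-libraries (right; the symbol marks replicate 1, 2 or 3 on the left and sub-library 1, 2 or 3 on the right). All libraries at 35 mM lie at or above 42.9 CPM, and those at 20 and 11.8 mM at or below 18.9 CPM.

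Each library was the sum of 3 separately barcoded sub-libraries, in which Dlk1 can be read again at lower depth. As reads per 1e6 gene counts it ranged from 4.95 to 14.2 in the sub-libraries of 11.8 mM (median 9.56), from 5.34 to 27.9 in those of 20 mM (median 14.1) and from 40.1 to 63.5 in those of 35 mM (median 49.0), with 9 sub-libraries each. No sub-library of 35 mM overlapped any of the others, while those of 20 and 11.8 mM overlapped broadly. Within a sample, the highest sub-library was 1.09 to 1.56 times the lowest at 35 mM, 1.91 to 3.17 times at 20 mM and 1.27 to 2.69 times at 11.8 mM. The sub-libraries of 1 sample share their RNA and are not replicates. In replicate 1 at 35 mM and replicate 1 at 11.8 mM the third sub-library had 39.5% and 35.2% of reads aligned to several places, against 11.3% to 17.0% in the other 25. Without both of them the log2 fold change of Dlk1 was 2.44 at 35 against 11.8 mM.

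Rtl1, the retrotransposon-derived gene, had 0 counts in all 9 libraries. A count of 0 allows up to 3 counts per library, a one-sided limit for counting error that differs from the two-sided intervals given for Dlk1, and this came to between 0.658 and 0.929 CPM. Dio3 had 1 count, in replicate 1 at 20 mM, and 0 counts in the other 8 libraries. Neither gene passed the filter on low counts, and no fold change is given for them. Their RNA was not detectable at this depth beyond that single read, in libraries that read transcript ends only.

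Of all 9739 genes tested, edgeR's quasi-likelihood test called 61 higher (0.626%) and 23 lower (0.236%) at 35 against 11.8 mM, with p-values adjusted over all of them after Benjamini and Hochberg and a threshold of 0.05. At 20 against 11.8 mM it called 15 higher (0.154%) and 3 lower (0.0308%), and at 35 against 20 mM 3 higher (0.0308%) and none lower (0%). At an unadjusted p under 0.05 it found 1024 genes (10.5%) at 35 against 11.8 mM, 776 (7.97%) at 20 against 11.8 mM and 515 (5.29%) at 35 against 20 mM. These shares are the background for the neighbours and gene groups that follow. The 9739 genes behind them include Dlk1 itself and the genes later picked for likeness to it. Leaving out 1 library moved the 84 calls at 35 against 11.8 mM to 41 without replicate 1 at 35 mM and to 138 without replicate 1 at 11.8 mM. It moved the 18 at 20 against 11.8 mM to 7 without replicate 1 at 20 mM and to 35 without replicate 2 at 11.8 mM.

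Among the protein-coding neighbours from 1 Mb before Dlk1 to 1 Mb after Dio3, none passed the test in any comparison. The count table had 26 genes in this window, of which 11 besides Dlk1 were tested: Evl, Yy1, Wars and Wdr25 on the side before Dlk1, and Ppp2r5c, Dync1h1, Hsp90aa1, Wdr20, Tecpr2, Rcor1 and Traf3 beyond Dio3. At an unadjusted p under 0.05, edgeR found 1 of the 11 at 35 against 11.8 mM (Yy1, lower), 1 at 20 against 11.8 mM (Rcor1, lower) and 0 at 35 against 20 mM, beside 10.5%, 7.97% and 5.29% of all genes. DESeq2 called 0 in each comparison, but its own filter left genes without an adjusted p, 2 of the 11 at 35 against 11.8 mM and 9 at 20 against 11.8 mM.

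Yy1, a zinc finger transcription factor that starts at -659.8 kb from the start of Dlk1, had 10.7, 13.9 and 12.2 CPM at 35 mM, against 22.9, 14.6 and 16.9 CPM at 11.8 mM. Its log2 fold change was -0.56, with an edgeR adjusted p of 0.324. Wars, the cytosolic tryptophanyl-tRNA synthetase, averaged 18.1 CPM both at 35 and at 11.8 mM. Ppp2r5c, a regulatory subunit of protein phosphatase 2A and the nearest tested gene beyond Dio3, had 12.5 CPM at 35 mM and 13.6 CPM at 11.8 mM. Hsp90aa1, an inducible cytosolic HSP90 chaperone, was the most counted of these genes, with means of 434.5 CPM at 35 mM and 443.0 CPM at 11.8 mM. Begain, the nearest gene of the table on the side before Dlk1, had 8 counts in all and was not tested.

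**Figure D2:**
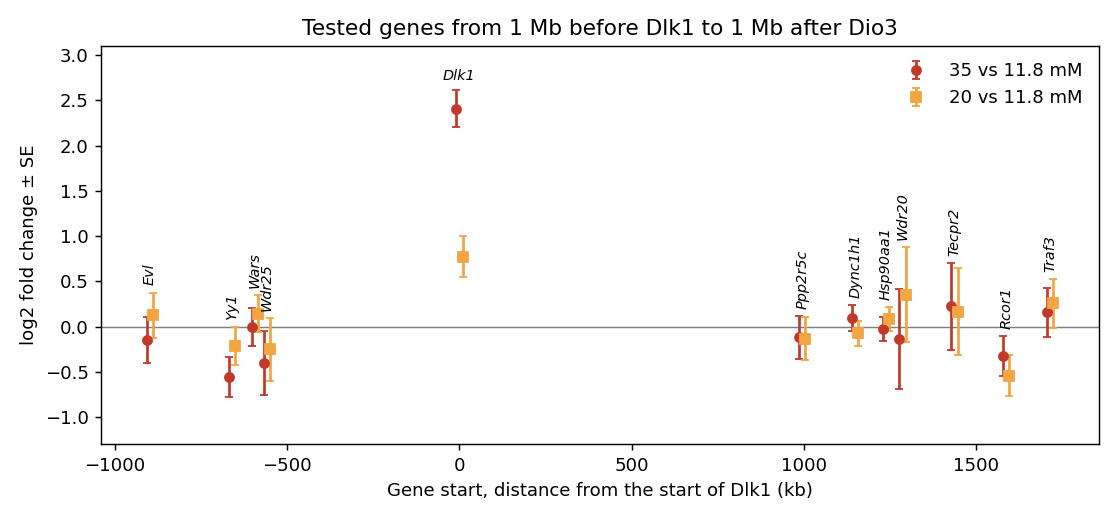
Log2 fold change with its standard error (vertical axis) of the 12 tested genes around Dlk1 by the distance of their start from that of Dlk1 in kb (horizontal axis), for 35 against 11.8 mM (circles) and 20 against 11.8 mM (squares). Dlk1 stands at 2.41 and 0.77, and the other 11 genes lie between -0.56 and 0.35.

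Genes of the Notch pathway, the receptor system to which Dlk1 is related, gave no call. Of 45 listed genes 33 were tested, and edgeR called 0 in each comparison. At an unadjusted p under 0.05 it found 3 at 35 against 11.8 mM (Aph1b, Dner and Ncstn, all higher), 4 at 20 against 11.8 mM and 1 at 35 against 20 mM, again beside 10.5%, 7.97% and 5.29% of all genes. DESeq2 called 0 in each, but 14 of the 33 at 35 against 11.8 mM and all 33 at 20 against 11.8 mM had no adjusted p from it. The median log2 fold change of the 33 genes was -0.02 at 35 against 11.8 mM, -0.06 at 20 against 11.8 mM and 0.12 at 35 against 20 mM, beside 0.00 over all genes in each.

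By role, the receptors had few counts: Notch1 averaged 3.998 CPM at 35 mM and 5.15 CPM at 11.8 mM, and Notch3 averaged 3.94 CPM at 35 mM and 5.78 CPM at 11.8 mM. Notch4 was 1.54, 2.02 and 2.26 CPM at 20 mM, against 3.73, 3.94 and 6.12 CPM at 11.8 mM. Its log2 fold change of -1.21 had an edgeR adjusted p of 0.379. Ncstn and Aph1b, subunits of the gamma-secretase that cuts activated Notch receptors, had log2 fold changes of 0.74 and 0.92 at 35 against 11.8 mM, with edgeR adjusted p-values of 0.336 and 0.431.

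Hes1, the classical target gene of Notch signalling, averaged 12.01 ± 3.18 CPM at 35 mM and 12.02 ± 4.52 CPM at 11.8 mM (SD, n = 3 libraries each). Hes6 averaged 32.8 CPM at 35 mM and 26.9 CPM at 11.8 mM, with an edgeR adjusted p of 0.604. Dlk2, the nearest relative of Dlk1, had 0 counts in all 9 libraries.

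Other imprinted genes, from clusters outside the locus, gave 2 calls among the 34 tested of 50 listed. At 35 against 11.8 mM edgeR called H13 higher and Zim1 lower, which is 1 of 34 in each direction. At 20 against 11.8 mM and at 35 against 20 mM it called 0. The median log2 fold change of the 34 genes was -0.09, -0.03 and -0.06 in these 3 comparisons. At an unadjusted p under 0.05 edgeR found 11 of the 34 at 35 against 11.8 mM, 5 higher and 6 lower, beside 10.5% of all genes tested. At 20 against 11.8 mM it found 10, beside 7.97% of all genes, and at 35 against 20 mM 1, beside 5.29%. DESeq2 called H13 at 35 against 11.8 mM and 0 of them in the other comparisons, with no adjusted p for 2 of the 34 at 35 against 11.8 mM and for 22 at 20 against 11.8 mM.

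H13, which encodes signal peptide peptidase, had 228.4, 206.4 and 194.3 CPM at 35 mM, against 145.0, 134.3 and 94.4 CPM at 11.8 mM. Its log2 fold change was 0.75 ± 0.15 (SE), with an edgeR adjusted p of 0.00578. Without replicate 3 at 11.8 mM the adjusted p was 0.0743, and without replicate 1 at 35 mM it was 0.0653. It was under the threshold in 16 of 19 alternative settings, with a range of 6.34e-05 to 0.127. Mcts2, an imprinted retrogene within an intron of H13, had a log2 fold change of 0.88 and an adjusted p of 0.228. An annotated gene on the other strand overlaps exons of H13, and the counting strand is not given in the sources used here.

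Zim1, an imprinted zinc finger gene of the Peg3 cluster, had 20.9, 17.1 and 23.9 CPM at 35 mM, against 35.2, 28.7 and 39.6 CPM at 11.8 mM. It fell by 0.73 on the log2 scale with a standard error of 0.18 and an edgeR adjusted p of 0.044. The call held in 5 of 19 alternative settings, and leaving out any 1 library other than replicate 2 at 11.8 mM brought the adjusted p to between 0.050 and 0.280. Over all 19 settings it ranged from 0.0143 to 0.502. Peg3 and Usp29 of the same cluster had log2 fold changes of -0.42 and -0.38, with adjusted p-values of 0.197 and 0.364. Igf2, the paternally expressed growth factor, averaged 4.98 CPM at 35 mM and 7.22 CPM at 11.8 mM, with an adjusted p of 0.575. Gnas, the stimulatory G protein subunit and the most counted gene of the list, averaged 1894 CPM at 35 mM and 1393 CPM at 11.8 mM, with an adjusted p of 0.138.

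At 20 against 11.8 mM the smallest p-value in the imprinted list was that of Copg2, a coatomer subunit. It had 33.3, 30.1 and 29.6 CPM at 20 mM, against 18.1, 20.8 and 18.4 CPM at 11.8 mM. Its edgeR adjusted p was 0.150. Its exons overlap those of Mest on the other strand.

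In growth hormone and prolactin signalling, 1 of 10 tested genes was called, of 14 listed. Igf1r, the receptor of insulin-like growth factor 1, had 227.3, 233.1 and 224.4 CPM at 35 mM, against 158.3, 151.8 and 150.3 CPM at 11.8 mM. It rose by 0.57 ± 0.14 (SE) on the log2 scale, with an edgeR adjusted p of 0.044. The call held in 8 of 19 alternative settings, with a log2 fold change of 0.30 to 0.70 throughout. Leaving out any 1 of 6 libraries (replicates 2 and 3 at 11.8 mM, replicate 3 at 20 mM and each at 35 mM) gave adjusted p-values of 0.0526 to 0.180, within a range of 0.00875 to 0.672 over all 19. Prlr, the prolactin receptor, had 220.8, 227.0 and 234.1 CPM at 35 mM, against 159.6, 143.7 and 185.9 CPM at 11.8 mM. Its adjusted p was 0.080 in edgeR and 0.025 in DESeq2, with a range of 0.0250 to 0.620 over the alternatives.

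Ghr, the growth hormone receptor, averaged 35.8 CPM at 35 mM and 33.96 CPM at 11.8 mM. Socs2 and Cish, feedback inhibitors that STAT5 induces, had log2 fold changes of -0.16 and -0.50, with adjusted p-values of 0.801 and 0.778. Tph1, which prolactin induces in islets during pregnancy, had 8 counts in all. The median of the 10 genes was -0.22 at 35 against 11.8 mM, -0.27 at 20 against 11.8 mM and 0.11 at 35 against 20 mM. At 35 against 11.8 mM edgeR found 4 of the 10 at an unadjusted p under 0.05, Igf1r and Prlr higher and Socs3 and Stat3 lower, beside 10.5% of all genes. DESeq2 called Igf1r and Prlr there and gave no adjusted p to 3 of the 10. At 20 against 11.8 mM and at 35 against 20 mM edgeR called 0 of the 10, with 2 and 1 of them at an unadjusted p under 0.05, beside 7.97% and 5.29% of all genes. DESeq2 called 0 in both, without an adjusted p for 6 at 20 against 11.8 mM.

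Genes that keep imprints and DNA methylation gave no call among the 9 tested of 14. Tet2, which oxidises methylated cytosine, came nearest, with 8.05, 10.2 and 7.67 CPM at 35 mM, against 14.9, 15.7 and 17.8 CPM at 11.8 mM. Its log2 fold change of -0.90 had an edgeR adjusted p of 0.052. It was called in 4 of 19 alternative settings, with an adjusted p from 0.0363 to 0.790, one of them leaving out replicate 1 at 11.8 mM (0.0478). Dnmt1, the maintenance methyltransferase, averaged 5.22 CPM at 35 mM and 4.63 CPM at 11.8 mM. Trim28, the corepressor that protects imprints in the embryo, averaged 94.6 CPM at 35 mM, 78.65 CPM at 20 mM and 99.3 CPM at 11.8 mM. At 20 against 11.8 mM its log2 fold change was -0.34, with an edgeR adjusted p of 0.529. Zfp57, the partner of Trim28, had 2 counts in all. At an unadjusted p under 0.05 edgeR found 1 of the 9 genes at 35 against 11.8 mM, 2 at 20 against 11.8 mM and 0 at 35 against 20 mM, beside 10.5%, 7.97% and 5.29% of all genes, and DESeq2 called 0 in each, without an adjusted p for 3 at 35 and 7 at 20 against 11.8 mM. The list medians were -0.11, -0.17 and -0.11.

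Genes that handle thyroid hormone, the substrate of Dio3, gave no call either among 9 tested. At an unadjusted p under 0.05 edgeR found 0 in each comparison, and DESeq2 called 0, without an adjusted p for 2 at 35 and 4 at 20 against 11.8 mM. Klf9, a thyroid hormone target, averaged 72.2 CPM at 35 mM and 85.8 CPM at 11.8 mM, with an edgeR adjusted p of 0.577. Dio1, the activating deiodinase of liver and kidney, averaged 5.33 CPM at 35 mM and 4.93 CPM at 11.8 mM, and Dio2 had 2 counts in all. The list medians were -0.02, -0.07 and 0.02.

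**Figure D3:**
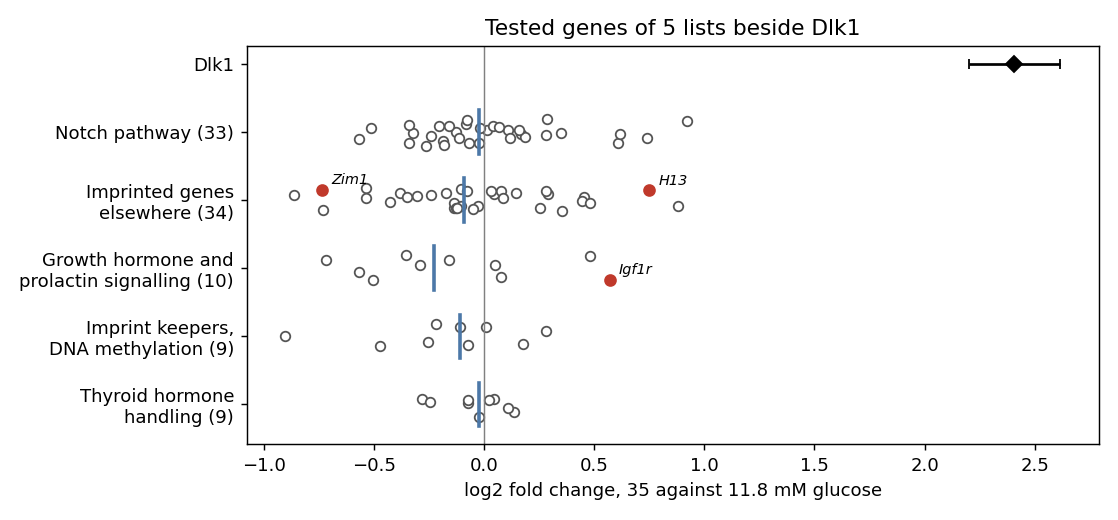
Log2 fold change at 35 against 11.8 mM (horizontal axis) of the tested genes of 5 lists (rows, with their numbers of tested genes), with Dlk1 and its standard error at the top. Filled circles are genes called at an adjusted p under 0.05, open circles are not called, and vertical bars are list medians, which lie between -0.22 and -0.02.

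Dlk1 is also made by cells other than islet endocrine cells, so marker lists of these cells are given beside it. Markers of fibroblasts and stellate cells summed to between 249.1 and 422.4 CPM in libraries of 11.8 mM, 178.2 and 277.5 CPM at 20 mM and 167.4 and 280.1 CPM at 35 mM. The 7 tested of 9 markers had a median log2 fold change of -0.55 at 35 against 11.8 mM. Pdgfra was at 0 in at least 1 library. Endothelial markers summed to between 13.1 and 17.6 CPM at 11.8 mM, 6.78 and 16.4 CPM at 20 mM and 9.09 and 10.7 CPM at 35 mM, with Kdr at 0 in at least 1 library. The 3 tested endothelial markers had a median log2 fold change of -0.95 at 35 against 11.8 mM.

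Markers of Schwann cells and neurons summed to between 52.2 and 74.6 CPM at 11.8 mM, 62.7 and 70.5 CPM at 20 mM and 51.1 and 100.6 CPM at 35 mM, with a median log2 fold change of 0.49 over 5 tested genes at 35 against 11.8 mM. Duct markers summed to between 189.4 and 303.2 CPM at 11.8 mM, 226.2 and 316.9 CPM at 20 mM and 297.0 and 327.9 CPM at 35 mM, with a median of 0.35 over 4 tested genes. Acinar markers ranged from 3100 to 10820 CPM at 11.8 mM, from 6186 to 10440 CPM at 20 mM and from 5766 to 9316 CPM at 35 mM. Immune markers ranged from 86.2 to 99.8 CPM at 11.8 mM, from 68.0 to 76.7 CPM at 20 mM and from 58.9 to 117.5 CPM at 35 mM. At 35 against 11.8 mM the median log2 fold change was 0.16 over 9 tested acinar markers and -0.46 over 6 tested immune markers. None of the markers of these non-endocrine cells was called by edgeR in any comparison. Beta cell markers had a median of 0.05 at 35 against 11.8 mM, with 1 of 8 tested called higher. The part of any of these cell types in the level of Dlk1 was not tested.

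Among 5318 genes that averaged 10 CPM or more, Bace2, Txnip, Slc7a3, Hspa4, Hap1, Shisa5 and Prkar1a were 7 of the 8 whose log2(CPM + 1) followed that of Dlk1 most closely over the 9 libraries, with Pearson r from 0.953 for Bace2 to 0.918 for Prkar1a. The median r over all 5318 genes was 0.035, and 14 had r above 0.9. Without replicates 1 and 2 at 35 mM, the libraries farthest from the median of Dlk1, r was 0.850 to 0.955 for these 7 genes over the other 7 libraries. Within the 6 libraries of 20 and 11.8 mM it was 0.761 to 0.961. The points share their libraries and depth, the libraries at 35 mM stand apart for Dlk1, and the genes were picked for this likeness, so the values are descriptions without a test.

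Txnip, the thioredoxin-interacting protein known to be induced by glucose in beta cells, had 13.3, 12.5 and 13.4 CPM at 11.8 mM, 21.9, 27.5 and 26.2 CPM at 20 mM and 51.3, 50.8 and 44.3 CPM at 35 mM. Its libraries did not overlap between any of the concentrations. Those of Dlk1 did not either, and Txnip was picked for its likeness to Dlk1, so this follows in part from the choice. How many of all genes separate in this way was not counted.

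Bace2, an aspartyl protease related to the beta-secretase of amyloid precursor protein, averaged 201.8 CPM at 11.8 mM, 250.2 CPM at 20 mM and 319.6 CPM at 35 mM. Slc7a3, a transporter of cationic amino acids, averaged 7.25 CPM at 11.8 mM, 12.2 CPM at 20 mM and 19.5 CPM at 35 mM. Prkar1a, a regulatory subunit of protein kinase A, averaged 240.0 CPM at 11.8 mM, 281.4 CPM at 20 mM and 311.9 CPM at 35 mM, and had the highest r within the 6 libraries of 20 and 11.8 mM. Hap1, the huntingtin-associated protein, averaged 79.6, 109.5 and 142.0 CPM from the lowest to the highest concentration, Shisa5 48.5, 61.0 and 78.8 CPM, and the chaperone Hspa4 153.5, 162.8 and 186.2 CPM. As chosen, the 7 genes shared the order of their means with Dlk1, over very different ranges.

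**Figure D4:**
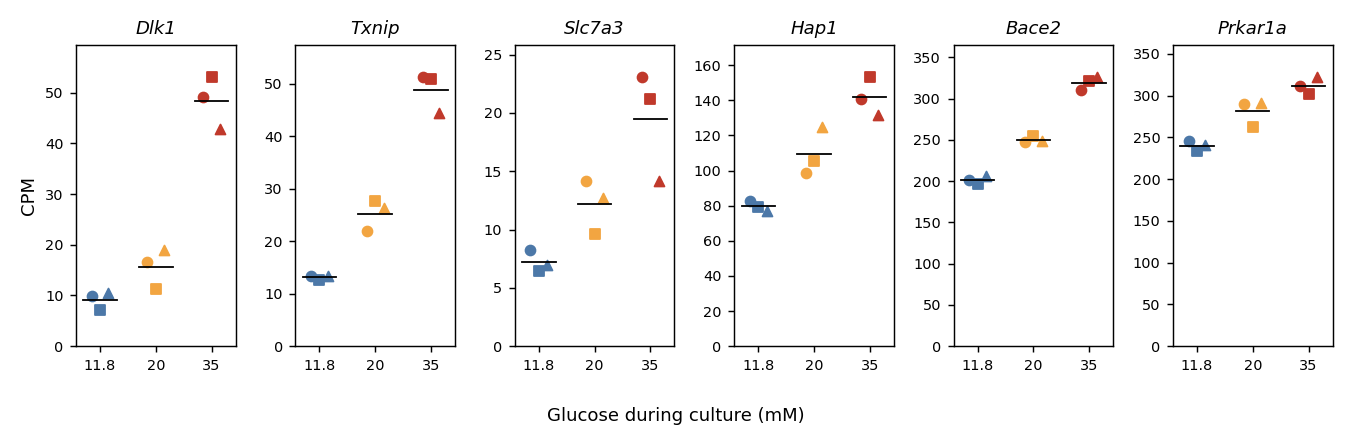
CPM (vertical axes, each from 0) of Dlk1 and 5 of the genes most like it by glucose concentration in mM, with 1 symbol per library and a bar at the group mean. Dlk1 lies between 42.9 and 53.1 CPM and Txnip between 44.3 and 51.3 CPM at 35 mM.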

How the data were processed

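Islet RNA was made into CEL-Seq2 libraries, 3 per concentration, from 3 ng of RNA, per the labels' protocols. The deposited count table gives reads for each gene in each barcoded sub-library. Per the submitters' processing notes the authors used cutadapt, TopHat and HTSeq, with GRCm38.p4 as the genome build. Tool versions, annotation and strand setting: not given in the sources used here. How molecular identifiers were handled is not given either. Single sub-libraries reached 605402 counts for 1 gene, against 4096 possible identifiers, so the counts were treated as reads that may hold copies, and statements of depth cover counting error only. The deposited sample sheet tied 27 sub-libraries to the samples, and the 3 of each sample were summed. A further 30 columns with values of single samples matched no label and were not used. Of 22145 features, 92 spike-ins and 5 summary lines (19.6% to 29.9% of counted reads per library) were left out. GENCODE M21 gave symbols to 21781 of 22048 genes. Exons of Prlr and Rcor1 overlap a predicted gene on the same strand, and those of H13, Copg2, Ncstn, Notch3, Tet2, Evl, Dync1h1 and Txnip a gene on the other strand, so part of their counts may belong to it.

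Tests used R 4.3.3 and edgeR 4.0.16, with TMM factors, the filterByExpr filter, 1 mean per concentration from the 9 libraries together (leaving 6 residual degrees of freedom), the robust quasi-likelihood test and Benjamini-Hochberg adjustment over 9739 genes. A gene was called at an adjusted p under 0.05. Standard errors were set so that the squared ratio of log2 fold change to error is the test statistic. CPM are counts per 1e6 counts of the TMM-scaled library size. An exact permutation test of 3 against 3 libraries cannot go below 0.1. In 3 simulated sets of the 35 against 11.8 mM comparison over 9739 genes, 67.2% of true 2-fold changes and 96.9% of true 4-fold changes were called, as were 26 of 27919 unchanged genes. True changes were set only in genes above a limit on mean counts, so these shares do not cover tested genes with few counts.

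The members, gene lists and tests were chosen with earlier results of these data known. Named were the members, the tested genes in the window, up to 4 called genes per list or the 2 with the smallest p, and the 8 genes most like Dlk1, of which 1 is not reported here. Also described, after their values were seen, were Notch1, Hes1, Hes6, Dlk2, Dner, Mcts2, Peg3, Usp29, Igf2, Gnas, Ghr, Prlr at 35 against 11.8 mM, Socs2, Cish, Tph1, Dnmt1, Zfp57, Socs3, Stat3, Dio1, Dio2 and Begain. Alternatives were DESeq2 size factors, the DESeq2 1.42.0 Wald test, no filter, leaving out the 20 most abundant genes, a replicate block, only the concentrations compared, each library left out, and, added after the data were seen, single sub-libraries and removal of 2 sub-libraries.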

Additional observations from a re-analysis of the deposited data

How the results depend on the processing

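The log2 fold change of Dlk1 ranged from 2.15 to 2.51 at 35 against 11.8 mM, from 0.51 to 1.01 at 20 against 11.8 mM and from 1.44 to 1.88 at 35 against 20 mM over 19 alternatives, all within the spread between libraries. The number of genes called at 35 against 11.8 mM (84) was 148 without the filter on low counts, 12, 42 and 39 in single sets of sub-libraries, which hold fewer counts, and 41 to 138 with 1 library left out. At 20 against 11.8 mM (18) it was 51 without the filter, 48 by the DESeq2 Wald test, 11 with only these concentrations, 2 and 8 in sub-libraries 1 or 2 alone, and 7 to 35 with 1 library left out. At 35 against 20 mM (3) it was 1 in each single set of sub-libraries and 1 to 7 with 1 library left out. Single libraries moved a count by over 1.5 times in the first comparison for replicates 1 and 2 at 35 mM (41 and 54 without them) and replicates 1 and 3 at 11.8 mM (138 and 47), in the second for replicates 1 and 3 at 20 mM (7 and 9) and replicate 2 at 11.8 mM (35), and in the third for replicate 3 at 35 mM (7) and replicate 3 at 20 mM (1). The cause of these shifts was not tested. Same-numbered libraries of different groups had correlations of -0.146 to 0.046 in their deviations from group means, and differently numbered ones -0.159 to 0.163. With 3 libraries per group, these values do not settle whether the replicate numbers pair the samples. With the replicate number as a block the counts were 74, 13 and 3, and Igf1r had an adjusted p of 0.064. The alternatives gave 2074 values of 38 other genes, not all of them named here. Of these values, 2009 stayed on their side of the threshold, 58 lost a call, 7 gained one and none changed direction after a call. Most values belong to results that were not called to begin with and had no call to lose. Zim1 at 35 against 11.8 mM lost its call in 14 of 19 settings, and Igf1r there in 11 of 19. Txnip at 35 against 20 mM lost its call in 7 of 19. At 35 against 11.8 mM Hap1 and Txnip were called in all 19. Rtl1, Dio3 and the Notch receptors had few counts or none, so little can be read about them at this depth.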
